A study of Mus musculus with 3 samples.

Results

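The ETS transcription factor genes Ets1, Ets2, Fli1, Elf1, Elf4, Elk3, Elk4, Gabpa, Spi1 and Spib were read in RNA from a sorted leukocyte population. These 10 genes were taken by name from a table of 17857 genes, and all 10 were found in it. The cells were positive for Ly6C and for c-kit, a receptor tyrosine kinase, negative for the integrin chain CD11c, and came from the lymph nodes draining B16F10 tumours, a melanoma line, in C57BL/6J mice. The tumours had been implanted on both sides in the upper anterior thigh, were at day 14 and had received no treatment. Nodes were pooled before the sort, and 3 libraries, called replicates 1, 2 and 3, come from what the labels call replicate experiments. They form 1 group with no control population, so levels were compared with fixed reference levels and between genes within a library.

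ETS factors share a DNA-binding domain, the ETS domain, that recognises sites built around the core GGAA, and they divide into subfamilies by the rest of the protein and by the partners they bind. Ets1 is known for its use in T, B and natural killer (NK) lymphocytes, and Fli1 for its use in megakaryocytes, endothelium and lymphocytes. Spi1, which encodes PU.1, is required by myeloid cells and B cells, and Spib, its close relative, is used by B cells and plasmacytoid dendritic cells.

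A stretch of coding sequence inside the ETS domain was used to compare the other members with Ets1. It is the 48 bases of the Ets1 coding sequence, read in whole codons, that had the most matches in the other 9 coding sequences. Each line gives the best match of a member without gaps, 5′ to 3′ on the coding strand, and capitals mark bases identical to Ets1. The lines of Elf4 and Elk3 are not printed.
Ets1: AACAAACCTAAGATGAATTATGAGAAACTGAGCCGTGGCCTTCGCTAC
Elk4: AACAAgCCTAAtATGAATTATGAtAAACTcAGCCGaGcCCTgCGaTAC
Ets2: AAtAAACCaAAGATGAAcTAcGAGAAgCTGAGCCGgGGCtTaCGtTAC
Fli1: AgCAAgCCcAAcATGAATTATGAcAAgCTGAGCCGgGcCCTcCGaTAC
Gabpa: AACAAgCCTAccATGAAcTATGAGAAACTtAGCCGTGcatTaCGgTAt
Elf1: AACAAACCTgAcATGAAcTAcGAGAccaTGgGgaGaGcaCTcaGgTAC
Spi1: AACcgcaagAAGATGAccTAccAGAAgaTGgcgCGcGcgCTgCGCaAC
Spib: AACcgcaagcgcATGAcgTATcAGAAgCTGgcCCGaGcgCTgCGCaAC
The match to Ets1 was 40 of 48 bases in Elk4, 39 in Ets2, 38 in Fli1 and 37 in Gabpa. It was 33 in Elf4 and in Elk3, 32 in Elf1, and 28 in Spi1 and in Spib. These are counts of bases in a short stretch picked for its matches, so they do not rank the members by kinship. The window lies in exon 8 of 8 of Ets1 (chr9:32754240-32754287, plus strand), in exon 2 of 5 of Elk4 (chr1:132014539-132014586, plus strand), in exon 5 of 5 of Spi1 (chr2:91115236-91115283, plus strand) and in exon 6 of 6 of Spib (chr7:44528049-44528096, minus strand). In Gabpa, Elf1 and Elf4 it spans a junction between exons. The sequences and exons are those of the GENCODE M21 annotation on GRCm38, the assembly that mm10 represents.

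In spite of this likeness, long identical runs between members were few. The longest run of identical bases in the coding sequences of any pair was 36, between Elf1 and Elf4, followed by 21 between Ets1 and Fli1. None of the 10 transcripts shared a word of 50 bases with another member. With genes outside the 10, such as overlapping neighbours and near-copies, Elf1 shared 9.41% of its words of 50 bases, Elk3 6.51%, Gabpa 4.07% and Elk4 2.14%, so their counts are less certain if such reads were split, and the other members shared under 1%. Overlap with genes on the other strand was small. Exons of Gabpa overlapped those of Atp5j over 397 bases (6.98% of Gabpa exon bases), those of Elk3 overlapped Cdk17 over 316 (6.95%), those of Elf1 overlapped Wbp4 over 327 (4.85%) and those of Elk4 overlapped Mfsd4a over 84 (1.31%). No source used here gave the strand setting of the counting, so reads in those stretches may be split with the neighbour. The mean levels of 3 of these neighbours were 69.0 CPM for Atp5j, 215 CPM for Cdk17 and 51.2 CPM for Wbp4.

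Levels are normalised read counts, scaled to the size of the library (CPM), and are given as mean ± SD over the 3 libraries (n = 3). CPM grows with gene length, so levels of different genes are set against each other in CPM per kilobase of the deposited gene length, and an order in CPM is not one of levels per length. Totals were 9077195, 13885509 and 13861430 counts in replicates 1, 2 and 3. Genes with at least 10 counts in all, 15490 of them, were tested, and all 10 members were among these. T cell marker genes were high in each library, with 10 of 10 above 50 CPM and sums of 3723, 4693 and 4653 CPM in the 3 libraries. Kit, the gene of the sorted receptor, was read at 9.83, 5.35 and 5.92 CPM, and Itgax, which encodes CD11c, at a mean of 31.4 CPM. Replicate 1 stood apart by its erythroid genes, whose 7 markers summed to 4285 CPM against 64.6 and 308 CPM in replicates 2 and 3. It also had the fewest genes with no count, 632 against 3788 and 2199, although its total was the lowest. Of all genes tested, 45.2% were highest in replicate 1. Mitochondrial ribosomal RNA took 17.8%, 6.22% and 13.1% of the counts in replicates 1, 2 and 3. What made these differences was not tested.

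Most of the 10 members were read at high levels, with Ets1 far above the rest. They are a part of the family, and the 15 other ETS genes measured had a median of 0.562 CPM per kilobase. All 10 lay above 1 CPM in edgeR's test, as did 68.6% of all genes tested. Above 50 CPM lay 6 members (Ets1, Elk4, Elf1, Elf4, Fli1 and Gabpa), against 19.9% of all genes. Below 50 CPM lay 2, Spi1 and Spib, against 66.7% of all genes, and Ets2 and Elk3 were not separated from it. On the per-length scale, 9 members lay above the median gene tested, at 5.50 CPM per kilobase, against 43.0% of all genes, and 0 lay below it in edgeR's test, against 19.1%. No member was below it at an unadjusted p under 0.05 either, and Spib was called below it when replicate 1 was left out or a stricter filter was used. The median member was read at 35.6 CPM per kilobase and the median gene tested at 5.50. The members were chosen by name with earlier results of these data known.

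**Figure D1:**
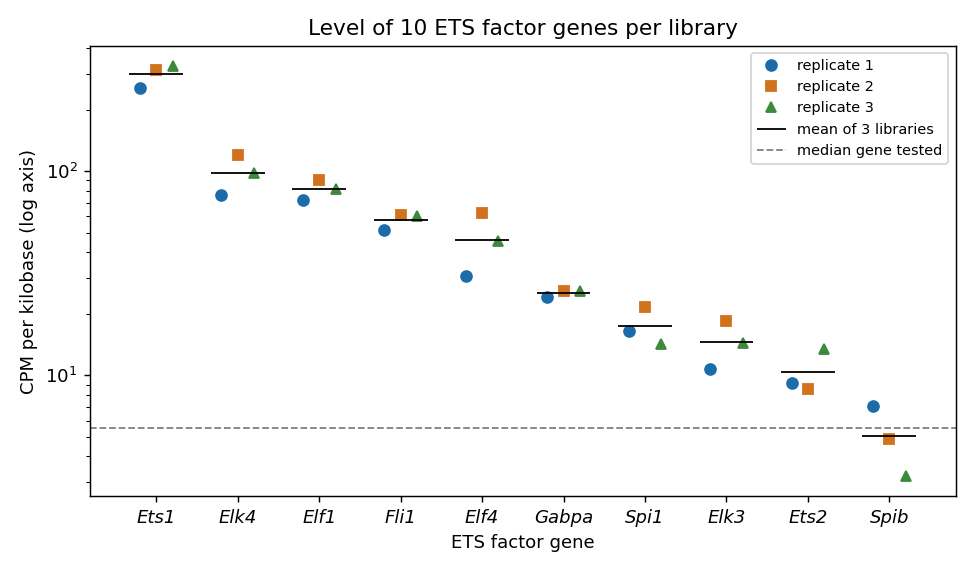
Level of the 10 ETS factor genes in CPM per kilobase (log axis), 1 point per library and a bar at the mean of the 3 libraries; the dashed line is the median gene tested (5.50 CPM per kilobase). Ets1 lies above every other member in each library, and Spib is the only member whose mean lies under the line.

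Ets1, whose product binds the T cell receptor and cytokine receptor genes among others, had levels of 1289.8, 1585 and 1649 CPM in replicates 1, 2 and 3 (1508 ± 192 CPM). No other ETS gene came near it in any library, and the lowest value was that of replicate 1. Its log2 level over 50 CPM was 4.91 (edgeR adjusted p = 2.75e-08), with a standard error of 0.11. Standard errors, here and below, come from the SD of log2 CPM between libraries and not from edgeR. Per kilobase Ets1 was read at 298 ± 37.9 CPM, which put it at percentile 99.5 among the genes tested. The gene spans chr9:32636241-32757820 on the plus strand (Entrez gene 23871, RefSeq coordinates of GRCm38.p6).

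Ets2, the nearest paralog of Ets1 and a target of MAP kinase signalling, was read at 32.8, 30.6 and 47.8 CPM (37.0 ± 9.36 CPM). Replicate 3 was the highest and the other libraries lay close to each other. It was not separated from 50 CPM (log2 -0.43, edgeR adjusted p = 0.0572, and 0.0240 to 0.591 over the alternatives). At 10.4 ± 2.63 CPM per kilobase it lay above the median gene (adjusted p = 0.00133), a call that ended without replicate 1 (0.0869) and without replicate 3 (0.0956), and with filterByExpr, a stricter filter on low counts, the value turned to log2 -0.11 (0.601). Within libraries, Ets1 exceeded Ets2 per kilobase by 4.79, 5.18 and 4.60 log2 units (mean 4.86 ± 0.30, a 28.99-fold difference). Neutrophil marker genes summed to 203, 72.8 and 788 CPM, with 8 of 8 highest in replicate 3, against 22.8% of all genes tested. Their sums had the same order over the libraries as Ets2, and their part in its level was not tested. In bulk RNA, fewer cells of a type and less RNA per cell cannot be told apart, here and for the members that follow.

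Fli1, which lies beside Ets1 on chromosome 9 (chr9:32422204-32543432, minus strand), was read at 159, 188 and 187 CPM (178 ± 16.3 CPM). All libraries held it above 150 CPM, with replicate 1 lowest, and the level lay above 50 CPM (log2 1.83, standard error 0.08, edgeR adjusted p = 6.56e-06). The log2 ratio of Ets1 to Fli1 per kilobase was nearly the same in each library, at 2.30, 2.36 and 2.43 (2.36 ± 0.06, 5.15-fold). Fli1 is known for its targets in megakaryocytes, of which 6 were listed. Of them, 2 of 6 lay above 1 CPM, against 68.6% of all genes tested, and 6 of 6 below 50 CPM, against 66.7%, with Pf4 (5.74 ± 4.96 CPM per kilobase) and Itga2b (2.55 ± 1.39) highest and Gp1ba (0.403 ± 0.164) among the lowest. All 7 platelet marker genes were highest in replicate 1, against 45.2% of all genes tested. They summed to 31.3 CPM there, and Gp9 and Gp6 had no count in replicate 2. Of 8 endothelial marker genes only Pecam1, which leukocytes share, lay above 50 CPM, and the list summed to 207, 157 and 199 CPM. Cldn5 had no count in any library, and Cdh5 was read at 4.97, 1.07 and 0.683 CPM.

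Elf1 and Elf4 are factors of lymphocytes, and Elf4 is known for activating perforin in cytotoxic cells and Klf2 in resting T cells. Elf1 was read at 305, 380 and 346 CPM (344 ± 37.3 CPM; log2 over 50 CPM 2.78, standard error 0.09, edgeR adjusted p = 5.01e-07). Elf4 was read at 179, 363 and 265 CPM (269 ± 92.2 CPM; 2.43, standard error 0.30, adjusted p = 5.86e-06). Both were lowest in replicate 1 and highest in replicate 2, and Elf4 differed 2.03-fold between those libraries where Elf1 differed 1.24-fold. Among the 1318 genes within 2-fold of its mean level, Elf4 stood at the 92.6th percentile for the SD of log2 CPM between libraries, and Elf1 at the 18.9th among 969 such genes. NK cell marker genes had the order of Elf1 and Elf4, with sums of 67.6, 588 and 242 CPM. Of them, 6 of 6 were highest in replicate 2, against 32.0% of all genes tested. Elk3 and Elk4 had this order as well, so it is not particular to Elf4 or NK cell genes. Of 10 T cell marker genes, 5 were highest in replicate 2 and 5 in replicate 3. Prf1, the perforin gene, was read at 18.5, 93.9 and 35.1 CPM, and Klf2 at 266, 466 and 352 CPM. They come from a list of lymphoid genes with known ETS sites, in which Il7r and Il2rb had the order of Elf4 too. Klf4 (15.7, 27.2 and 11.2 CPM) and Cd79a (24.0, 8.77 and 19.4 CPM) of that list did not. The part of NK cells in the level of Elf4 was not tested. Per kilobase, Elf1 exceeded Elf4 in each library, by 1.24, 0.54 and 0.86 log2 units (0.88 ± 0.35).

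Elk3 and Elk4 are ternary complex factors, which bind beside serum response factor (Srf) at immediate early genes. Elk4 was read at 279, 438 and 360.4 CPM (359 ± 79.6 CPM) and lay above 50 CPM (log2 2.85, standard error 0.19, edgeR adjusted p = 7.88e-07). Elk3, which can act as a repressor, was read at 45.4, 77.8 and 60.8 CPM (61.4 ± 16.2 CPM) and was not separated from 50 CPM (log2 0.30, standard error 0.22, adjusted p = 0.135, and 0.0105 to 0.693 over the alternatives). Both genes were lowest in replicate 1 and highest in replicate 2. Elk4 exceeded Elk3 per kilobase by 2.82, 2.70 and 2.77 log2 units (2.76 ± 0.06, 6.80-fold). Elk1, the remaining ternary complex factor, was read at 14.3, 16.5 and 20.2 CPM and lay below 50 CPM (adjusted p = 6.03e-04). Srf itself was read at 54.8, 96.6 and 78.3 CPM, with the order of Elk3 and Elk4 over the libraries.

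The list of 8 immediate early genes that Elk factors and Srf are known to serve holds Srf itself, which is also counted among the partners below. All 8 lay above 1 CPM, 4 lay above 50 CPM, Srf among them, and 3 below, against 68.6%, 19.9% and 66.7% of all genes tested. Mcl1, a survival protein, was read at 199 ± 42.7 CPM per kilobase and Ier2 at 62.2 ± 5.42, and Fosb (4.18 ± 1.43) and Egr2 (5.20 ± 1.90) were lowest. Fos was read at 84.0, 39.9 and 99.0 CPM, lowest in the library where Elk3, Elk4 and Srf were highest. The list was split in this. Egr1, Egr2 and Fosb were lowest in replicate 2 as well, Egr3 was highest there (15.5, 17.3 and 12.3 CPM), and Mcl1 and Ier2 were lowest in replicate 1.

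Gabpa, the DNA-binding subunit of GA-binding protein, which serves genes of mitochondria, ribosomes and the interleukin 7 receptor, was the most even member. It was read at 120.0, 129 and 128 CPM (126 ± 4.89 CPM), with all libraries within 1.07-fold, and lay above 50 CPM (log2 1.33, standard error 0.03, edgeR adjusted p = 5.27e-05). Its SD of log2 CPM stood at the 2.86th percentile of 2485 genes of like level. Of the beta subunits, which carry the activation domain, Gabpb1 was read at 34.6, 36.2 and 35.5 CPM and Gabpb2 at 269, 425 and 395 CPM. Per kilobase, Gabpb1 lay below Gabpa by a near-constant log2 difference of -0.97, -1.0 and -1.02 (-1.0 ± 0.03). Gabpb2 lay above Gabpa in each library, by 0.36, 0.92 and 0.82 (0.70 ± 0.30). Il7r, the interleukin 7 receptor gene, was read at 442, 714 and 709.6 CPM.

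Spi1 and Spib were the members below 50 CPM. Spi1 was read at 22.0, 28.8 and 19.0 CPM (23.3 ± 5.04 CPM; 95% Poisson intervals, which cover counting error only, 19.1 to 25.2, 26.1 to 31.8 and 16.7 to 21.5). The value of replicate 2 was the highest, and its interval did not overlap the others. Spi1 lay below 50 CPM (log2 -1.10, standard error 0.18, edgeR adjusted p = 0.00205). Its deposited length of 1333 bases is short, and at 17.4 ± 3.78 CPM per kilobase it lay above the median gene (adjusted p = 2.11e-05). The principal GENCODE transcript has 2034 bases, which would give 11.4 CPM per kilobase.

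Spib was read at 19.8, 13.6 and 8.96 CPM (14.1 ± 5.42 CPM; intervals 17.0 to 22.8, 11.8 to 15.7 and 7.42 to 10.7). The intervals of the 3 libraries did not overlap, with replicate 1 highest and replicate 3 lowest. It lay below 50 CPM (log2 -1.83, standard error 0.33, edgeR adjusted p = 0.00107), and at 5.07 ± 1.94 CPM per kilobase it was not separated from the median gene (adjusted p = 0.672). That last call was 0.0162, below the median gene, without replicate 1, and ranged from 0.00775 to 0.946 over the alternatives. Within libraries, Spi1 exceeded Spib per kilobase by 1.22, 2.14 and 2.14 log2 units (1.83 ± 0.53, 3.57-fold), and Ets1 exceeded Spi1 by 3.95, 3.86 and 4.51 (4.11 ± 0.36, 17.2-fold). Each gave an exact permutation p = 0.25 by two-sided sign flips, no smaller p being possible with 3 libraries, or 0.278 adjusted over 10 ratios between genes.

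Markers of the cells that use Spi1 and Spib moved with them in part. Monocyte marker genes summed to 701, 980 and 369 CPM, with 5 of 8 highest in replicate 2, and had the order of Spi1. Macrophage marker genes summed to 987, 97.0 and 224 CPM with 8 of 8 highest in replicate 1, and did not. B cell marker genes summed to 488, 210.1 and 277 CPM, with 9 of 9 highest in replicate 1, where Spib was highest as well, but they were lowest in replicate 2. Plasmacytoid dendritic cell marker genes summed to 179, 169 and 125 CPM, in the order of Spib, with 5 of 7 highest in replicate 1. Pacsin1, the highest of that list in CPM, was even, at 66.6, 68.0 and 68.0 CPM. Over all genes tested, 45.2% were highest in replicate 1 and 32.0% in replicate 2. Vsig4 of the macrophage list had no count in replicate 2, and every monocyte, B cell and plasmacytoid marker had counts in all libraries. The part of these cells in the levels of Spi1 and Spib was not tested.

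Of 13 myeloid genes with known PU.1 sites, 13 lay above 1 CPM, 5 above 50 CPM and 6 below, against 68.6%, 19.9% and 66.7% of all genes tested. Lyz2, a lysozyme, had 320.4 ± 155 CPM per kilobase and Fcer1g, an Fc receptor chain, at 67.7 ± 18.1. Fcgr1 (3.00 ± 1.51 CPM per kilobase) was lowest. Their median was 22.0 CPM per kilobase against 5.50 for all genes tested. In the lymphoid list of 6 genes with known ETS sites, 3 lay above 50 CPM and 2 below, against 19.9% and 66.7% of all genes. Klf2 (199 ± 55.4 CPM per kilobase) and Il7r (194 ± 48.4) were highest, and Klf4 (5.93 ± 2.70) and Cd79a (13.1 ± 5.88), a B cell receptor chain, lowest.

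**Figure D2:**
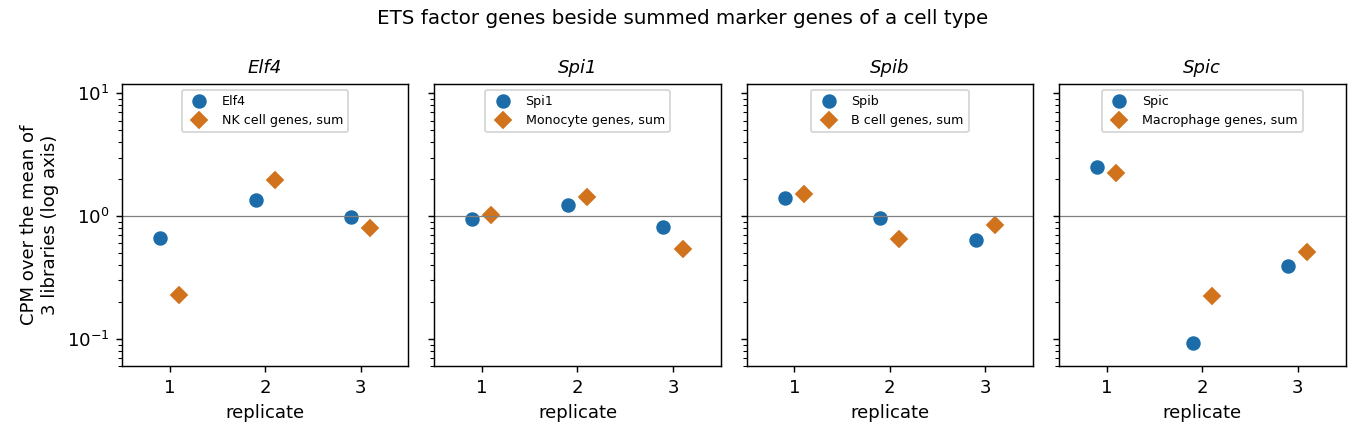
CPM of Elf4, Spi1, Spib and Spic (circles) and the summed CPM of marker genes of a cell type (diamonds) in replicates 1 to 3, each divided by its own mean over the 3 libraries (log axis); the pairs were chosen after their values were seen. Elf4 and NK cell genes share their order over the libraries, which Elf1, Elk3 and Elk4 have too. Spi1 and monocyte genes share theirs, as do Spic and macrophage genes, while Spib and B cell genes share only the highest library.

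Ordered by level per kilobase, the members ran Ets1, Elk4, Elf1, Fli1, Elf4, Gabpa, Spi1, Elk3, Ets2 and Spib. Ets1 exceeded Elk4 by 1.74, 1.39 and 1.73 log2 units (1.62 ± 0.20, 3.08-fold). The steps from Elk4 to Elf1 (0.25 ± 0.17), Elf1 to Fli1 (0.50 ± 0.06), Elf4 to Gabpa (0.81 ± 0.46), Gabpa to Spi1 (0.55 ± 0.30) and Ets2 to Spib (1.08 ± 0.87) were larger than their SD and had the same sign in 3 of 3 libraries. Fli1 and Elf4 (0.38 ± 0.39) and Spi1 and Elk3 (0.28 ± 0.32) did not differ beyond their spread and changed places in 1 library. Elk3 and Ets2 (0.47 ± 0.54) kept their order in 3 of 3 libraries but also lay within 1 SD. In all, 7 of 9 neighbouring pairs had the same sign in every library, each with an exact permutation p = 0.25 and 0.321 after adjustment over the 9 pairs. With the length of the principal GENCODE transcript, an alternative chosen after seeing the data, 5 of 9 did. Spi1 then fell behind Elk3, and Elf1 and Elk4 differed by 0.02 ± 0.17 log2 units.

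Most members shared a highest or a lowest library, some of them by small margins. Of the 10 members, 7 were highest in replicate 2, 1 in replicate 1 and 2 in replicate 3, against 32.0%, 45.2% and 22.8% of all genes tested. Lowest in replicate 1 were 7 members, in replicate 2 1 and in replicate 3 2, against 35.2%, 43.2% and 21.6%. Those lowest in replicate 1 were Ets1, Elk4, Elf1, Fli1, Elf4, Gabpa and Elk3. With totals alone as the scale, 8 were highest in replicate 2 and 6 lowest in replicate 1, and without mitochondrial and noncoding genes 6 and 7. T cell marker genes were split, with 5 of 10 lowest in replicate 1 and 5 in replicate 2, and 0 of 10 highest in replicate 1, while erythroid genes were highest there. Their part in the levels of the members was not tested. Spib went the other way, 0.56 log2 units above its mean in replicate 1 and -0.58 in replicate 3. The median SD of log2 CPM was 0.32 over the members and 0.43 over all genes tested, and 8 of 10 members lay under the latter. The median member was read higher, at 152 CPM against 12.4 CPM. Among genes within 2-fold of each member's mean level, the SD stood at percentile 2.86 in Gabpa, 16.7 in Fli1, 18.9 in Elf1 and 28.7 in Ets1. It stood at 56.3 in Spi1, 66.3 in Elk4, 69.6 in Ets2, 80.4 in Elk3, 81.2 in Spib and 92.6 in Elf4. Most members thus varied more than the median gene of like level.

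**Figure D3:**
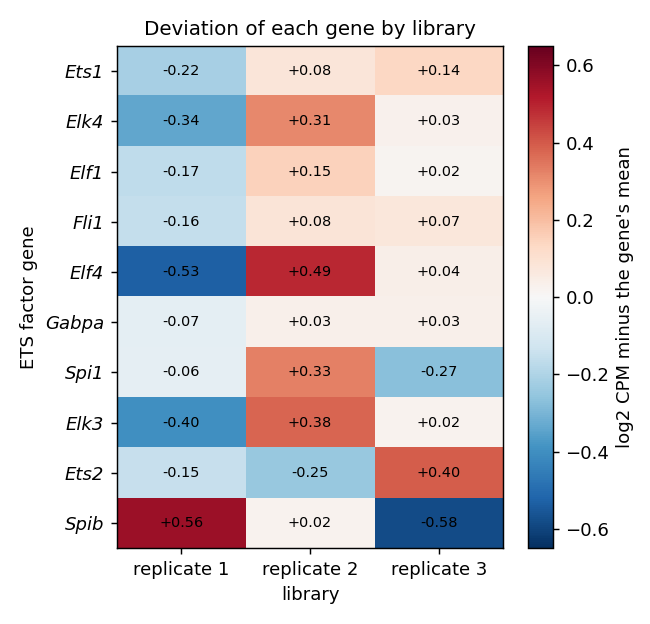
Deviation of each member's log2 CPM from its own mean in replicates 1, 2 and 3 (colour and printed value), ordered by level per kilobase. Elf4 (-0.53, 0.49 and 0.04) and Spib (0.56, 0.02 and -0.58) are the most uneven, and Gabpa (-0.07, 0.03 and 0.03) the most even.

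The other ETS genes were mostly read at low levels. The median over those measured was 1.98 CPM and 0.562 CPM per kilobase, against 12.4 and 5.50 over all genes tested. Of 16, 15 were measured and 12 had enough counts to test, while Fev was not analysed here. Above 1 CPM lay 7, above 50 CPM 2 and below 50 CPM 8 of the 12, shares near the 68.6%, 19.9% and 66.7% of all genes tested. The last count fell to 3 without replicate 3 or with a stricter filter. Per kilobase, 3 of the 12 lay above the median gene and 3 below, against 43.0% and 19.1% of all genes tested. Elf2, a relative of Elf1, was read at 140, 139 and 134 CPM (137 ± 3.20 CPM, edgeR adjusted p = 2.67e-05), and the repressor gene Etv3 at 122, 146 and 158 CPM (142 ± 18.6 CPM, adjusted p = 3.37e-05). Etv6, a repressor needed by blood stem cells, was read at 55.1 ± 6.95 CPM and not separated from 50 CPM. Erf (19.7 ± 6.65 CPM), Elk1 (17 ± 2.99) and Etv5 (5.21 ± 2.36) lay between 1 and 50 CPM.

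Spic, the macrophage relative of Spi1, was the most uneven ETS gene among those above 1 CPM. It was read at 44.5, 1.64 and 6.91 CPM, so replicate 1 carried most of it. Per kilobase its log2 ratio to Spi1 was 1.09, -4.03 and -1.38, so Spic stood above Spi1 in replicate 1 and below it in the other libraries. Macrophage marker genes (987, 97.0 and 224 CPM in sum) and erythroid genes (4285, 64.6 and 308) had the same order, and their part was not tested. Spic was not separated from 50 CPM (edgeR adjusted p = 0.0976), and was called below it without replicate 1 (0.00273) and without replicate 2 (0.00739).

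Genes of the family known from endothelium, epithelium or development were low. Most lay near the floor of detection in replicates 2 and 3, and several lay above it in replicate 1, such as Ehf with 42 counts. At the floor a count of 0 allows up to 3 counts, or 0.317, 0.214 and 0.228 CPM in replicates 1, 2 and 3. Erg, a factor of endothelium and stem cells, was read at 1.69, 0.0713 and 0.759 CPM and Etv1 at 2.85, 0.214 and 0.228 CPM. The epithelial genes Ehf (4.44, 0.357 and 1.14 CPM), Elf3 (2.85, 0.214 and 0.304) and Spdef (1.37, 0.0713 and 0) were highest in replicate 1, as were 11 of the 15, against 45.2% of all genes tested. Elf5 and Etv2 had counts in replicate 1 alone, and Etv4 had 3 counts there.

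Summed per kilobase over the 25 measured ETS genes, the 10 members took 80.3%, 87.2% and 86.3% of the level in replicates 1, 2 and 3. The 10 were chosen with earlier results of these data known, which bears on this share. Ets1 alone took 37.0%, 37.7% and 41.2% (38.6% ± 2.24), Elk4 12.6% ± 1.67 and Elf1 10.6% ± 0.229. Elf2, with 6.71% ± 0.763, was the largest outside the 10. Spi1 took 2.26% ± 0.415 and Spib 0.675% ± 0.321.

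**Figure D4:**
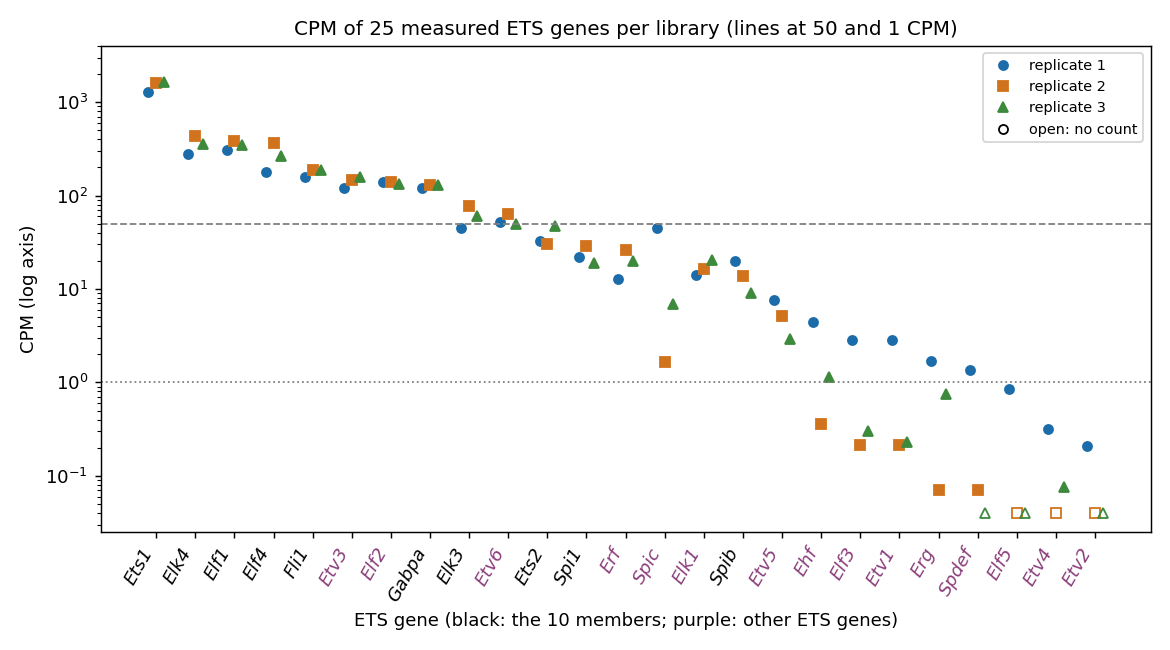
CPM (log axis) of the 25 measured ETS genes in the 3 libraries, ordered by mean, with the 10 members in black and the others in purple; lines mark 50 and 1 CPM and open symbols a library with no count. Ets1 is highest in every library, Elf2 and Etv3 are the only others above 50 CPM in edgeR's test, and most low genes are highest in replicate 1.

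Of 16 listed partners of ETS factors, 14 were measured, and Mkl1 and Mkl2 were not analysed here. Above 1 CPM lay 14, above 50 CPM 9 and below it 3, against 68.6%, 19.9% and 66.7% of all genes tested. The acetyltransferase coactivators Crebbp and Ep300 were read at 563 ± 127 and 412 ± 88.9 CPM. The core-binding factors, which join Ets1 on composite sites, were read at 122 ± 17.2 CPM for Runx1, 131 ± 83.1 for Runx3, 44.3 ± 36.3 for Runx2 and 145 ± 22.1 for their common subunit Cbfb. Runx3 and Runx2 were highest in replicate 2, at 224 and 86.3 CPM, where replicates 1 and 3 had 63.1 and 106 CPM of Runx3 and 23.6 and 23.2 CPM of Runx2. Without replicate 2, Runx2 was called below 50 CPM (edgeR adjusted p = 2.51e-04), and with all libraries it was not separated from it (0.668). Myb, whose sites often neighbour those of PU.1 and Ets factors, was read at 75.3, 172 and 102 CPM.

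The partners of Spi1 and Spib at composite sites, Irf4 and Irf8, were read at 53.5, 41.1 and 31.7 CPM and at 84.7, 97.4 and 44.2 CPM. Irf4 had the order of Spib and Irf8 that of Spi1 over the libraries. Per kilobase Irf8 exceeded Irf4 by 1.39, 1.97 and 1.20 log2 units (1.52 ± 0.40). The level of Irf8 was above 50 CPM (adjusted p = 0.0281 in edgeR), which no longer held without replicate 1 (0.109) and without replicate 2 (0.0871). Irf4 was not separated from 50 CPM (0.231). Pax5, which recruits Ets1 at the Cd79a promoter in B cells, was read at 13.4, 9.91 and 9.04 CPM. Gata1, the erythroid antagonist of PU.1, was read at 8.35, 0.998 and 2.58 CPM, highest in the library with the most erythroid RNA. Pax5, Gata1 and Gabpb1 (35.4 ± 0.842 CPM, adjusted p = 0.0206) were the partners below 50 CPM. Gabpb1 was not so called without replicate 3 (0.169) or with scaling that left out mitochondrial and noncoding genes (0.308).

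By the distance between library-centred log2 CPM over the 3 libraries, among genes with a mean of at least 10 CPM, the genes most like Ets1 were Wdyhv1 (distance 0.0030), Med14, a Mediator subunit (0.0059), and Cd226, a receptor of T and NK cells (0.0067). With 3 libraries such likeness is common, and 586 of 8276 genes lay within 0.1 of Ets1. Nearest to Spi1 were Ddx51 (0.0045), Hirip3 (0.0150) and Plek (0.0167), the gene of the leukocyte and platelet protein pleckstrin, with 78 genes within 0.1. Nearest to Spib were Rubcnl (0.0163), Ybx3 (0.0224) and Btk (0.0694), the kinase of the series' title, and 5 genes lay within 0.1. Btk was read at 27.1, 17.9 and 12.6 CPM, highest in replicate 1 and lowest in replicate 3 like Spib.

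Promoter windows of 300 bases, from 250 before to 50 after a transcript start, were matched in RefSeq (GRCm38.p6) for 7 members. Ets1, Fli1 and Spi1 were not matched. The core GGAA, or TTCC on the other strand, stood in 11 of 11 windows of these members and in 95.6% of 17162 windows of genes in the table. The longer site CCGGAAG, which GABP and many ETS factors bind (CTTCCGG on the other strand, with the GGAA core inside it), stood in 2 of 11 windows and in 13% of all. The 2 are shown on the strand of the gene with the site in capitals.
Elk4: cggcccctcccCCGGAAGtgacgctcgcgc
Gabpa: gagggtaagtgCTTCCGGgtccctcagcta
The Elk4 site starts 68 bases before one of its transcript starts (chr1:132007541-132007570). The Gabpa site starts 93 bases before a transcript start (chr16:84835020-84835049), and both genes are on the plus strand. The Gabpa gene itself starts further upstream in RefSeq, at chr16:84834891, so this site lies inside the gene. The 30 bases from the transcript start were found in GENCODE transcripts of the gene, in sense, for 9 of the 11 windows. GAGGAAG, a form close to the PU.1 site (CTTCCTC on the other strand, also holding the core), stood in 2 of 11 windows, again of Elk4 and Gabpa, and in 13.4% of all. These matches describe letters only, since no binding was measured.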

How the data were processed

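Total RNA (8 ng per library) was sequenced in 3 libraries, and the library kit was stranded and of the Pico Input type, per the labels' protocols. The authors deposited whole-number read counts per gene with gene lengths. The submitters' processing notes name bcl2fastq, STAR 2.75, featureCounts, DESeq2 1.18.1 and mm10. The annotation, strand setting and treatment of multiply matching reads are not stated there or in any other source used.

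Counts were used as deposited. CPM used TMM factors (1.04, 1.01 and 0.950) from edgeR 4.0.16 on full totals. For genes with at least 10 counts in all (2367 others were left out), edgeR's quasi-likelihood F statistic (glmQLFit) compared each level with 1 CPM, 50 CPM and the median gene per kilobase, with an intercept alone. As glmQLFTest needs 2 design columns, the F statistic was formed from the same deviances with the reference as the null mean. Tests were two-sided, with Benjamini-Hochberg adjustment over all 15490 genes and a threshold of 0.05. Log2 values between genes used a prior of 0.5 counts. The tests were checked on simulated data. DESeq2 1.42.0 and limma 3.58.1 were alternatives.

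The labels call the libraries replicate experiments and give no number of mice per pool, so the p-values reflect nothing beyond the spread among these 3 samples, and that spread may be technical. No pair of libraries agreed within sampling noise (chi-square at least 42.7 per degree of freedom). Members, lists and tests were chosen with earlier results of these data known. The rule named all members, all other ETS genes and partners, the 2 highest and 2 lowest genes per kilobase of each target list (some are not reported here), and the 3 genes nearest in pattern to Ets1, Spi1 and Spib. Atp5j, Cdk17, Wbp4, Prf1, Il2rb, Fos, Egr1, Egr3 and the marker genes fall outside it and were chosen after their values were seen.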

Additional observations from a re-analysis of the deposited data

How the results depend on the processing

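The alternatives were other scalings, filters, tools (DESeq2, limma-voom), robust empirical Bayes, a reference of 100 CPM, other length scales and leaving out each library. Of 131 recomputed counts and ratios, 120 stayed within 1.5 times or 1 SD. With 100 CPM as reference, 4 members lay below it, and of the partners 4 lay above and 5 below. With filterByExpr, 3 other ETS genes lay below 50 CPM and 1 member below the median gene, which that filter raises, the value of Ets2 turned to log2 -0.11 from it (adjusted p = 0.601), and Elk3 was no longer separated from it (0.0862). Leaving out 1 library gave 0 to 1 members below the median gene and 3 to 9 other ETS genes below 50 CPM. The mean log2 ratio of Ets1 to Spi1 was 6.03 in CPM and 4.71 with transcript lengths, and that of Spi1 to Spib 0.77 and 1.23. Leaving mitochondrial and noncoding genes out of the totals raised the median gene by 0.33 log2 units. Elk3 (adjusted p = 0.0105) then lay above 50 CPM, as it did without replicate 1 (0.0337). No paired analysis was possible because there is 1 group. With 3 libraries in 1 group, no value was tested as an outlier and no groups could differ.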
